A study of Mus musculus with 4 samples.

Results

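The membrane-spanning 4A (Ms4a) genes were followed across the immune cells of healing skin wounds, with 7 of the 31053 genes in the count tables taken by symbol: Ms4a1, Ms4a4b, Ms4a4c, Ms4a6b, Ms4a6c, Ms4a6d and Ms4a7. The tables held 19 Ms4a symbols in all, and the 12 outside this set are described last. Single-cell RNA-seq was done on live CD45+ leukocytes sorted from full-thickness dorsal punch wounds of 3 mm on day 1 or day 5 after wounding (dpw). The mice were 8-week-old males of the strain labelled C57BL6/J in every library, either wild type (Angptl4+/+) or carrying a deletion of Angptl4 in every tissue (Angptl4-/-), so the loss was not limited to the sorted cells. Each genotype and day had 1 library, the number of mice behind a library was not given in the sources used here, and a difference between libraries therefore has no replicate check and carries no p-value.

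Proteins of the MS4A family are small and cross the membrane several times, with both ends inside the cell. The best known is MS4A1, or CD20, the B cell antigen bound by therapeutic antibodies in lymphoma, while MS4A2 is the beta chain of the high-affinity IgE receptor of mast cells and basophils. MS4A7 is a macrophage marker, and MS4A4B is a T cell protein described as a partner of the costimulatory receptor GITR. The mouse has several closely related genes of the Ms4a4 and Ms4a6 kinds, which lie side by side in 1 cluster on chromosome 19.

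All 7 members lie in that cluster (GRCm38 coordinates, GENCODE M21 gene models). From low to high position the order is Ms4a1 at chr19:11249675-11266241 on the minus strand, Ms4a7 at chr19:11321039-11336146 on the minus strand, Ms4a4c at chr19:11404770-11427246, Ms4a4b at chr19:11443553-11467055, Ms4a6c at chr19:11469366-11482192 and Ms4a6b at chr19:11516512-11531256, these 4 on the plus strand, and Ms4a6d at chr19:11586604-11604849 on the minus strand. The 19 Ms4a genes together span 678559 bases. RefSeq promoter windows, which run from 250 bases before to 50 bases after a start site, were held for 5 of the 7 members, with 2 windows for Ms4a7.

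The stretches just upstream of the RefSeq start sites are shown for the pairs of members whose promoters could be aligned, because the partners of each pair differ in where they were detected. For Ms4a4c and Ms4a6b the stretch lies inside the GENCODE gene, so the window did not reach the GENCODE start. Capitals mark bases that differ from, or are missing in, the aligned partner (RefSeq, GRCm38.p6, plus strand, 5′ to 3′). The Ms4a4b stretch is chr19:11443422-11443552 and ends 6 bases before the RefSeq start, the Ms4a4c stretch is chr19:11407528-11407659 and ends 2 bases before it, the Ms4a6b stretch is chr19:11518311-11518452 and ends 107 bases before it, and the Ms4a6c stretch is chr19:11469193-11469330 and ends 38 bases before it.
Ms4a4b: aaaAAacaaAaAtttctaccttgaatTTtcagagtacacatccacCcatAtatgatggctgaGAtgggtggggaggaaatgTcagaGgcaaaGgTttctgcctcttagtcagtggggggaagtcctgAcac
Ms4a4c: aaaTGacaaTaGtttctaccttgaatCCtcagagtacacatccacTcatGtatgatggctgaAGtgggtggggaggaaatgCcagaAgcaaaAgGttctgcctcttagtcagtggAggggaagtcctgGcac
Ms4a6b: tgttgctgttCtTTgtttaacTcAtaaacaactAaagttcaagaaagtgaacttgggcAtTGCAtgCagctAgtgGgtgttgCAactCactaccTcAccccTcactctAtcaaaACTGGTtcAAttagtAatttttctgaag
Ms4a6c: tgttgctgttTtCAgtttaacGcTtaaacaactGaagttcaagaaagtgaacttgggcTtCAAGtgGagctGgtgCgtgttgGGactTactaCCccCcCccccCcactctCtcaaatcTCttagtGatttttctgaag
The Ms4a4b and Ms4a4c stretches matched in 116 of 132 aligned columns (87.9%). The Ms4a6b and Ms4a6c stretches matched in 112 of 144 columns (77.8%). Searched on both strands, the core of the interferon-stimulated response element was in 0 of the 6 windows of these members and in 3.44% of all 32851 windows of that length. GGAAGTG was in the Ms4a6b and Ms4a6c windows and in 11% of all windows, and TATAAA was in the Ms4a4b window alone among the 6 and in 13.6% of all windows. The close relation also reaches the transcripts, where reads were counted. Of the 31-base stretches in the transcripts of Ms4a6c, 21.9% occurred in another gene, 13.9% in Ms4a6b, and of those of Ms4a4c 17.1% occurred elsewhere, 13% in Ms4a4b. Some reads could thus be shared between these genes or left uncounted, while Ms4a7 and Ms4a1 shared only 1.22% and 2.16%. These shares are over whole transcripts, whereas the reads came from 3′ ends, so the part of the reads affected was not measured.

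Of 20069 barcodes, 19827 passed the filters, and the libraries held 26981596 to 32962595 unique molecular identifiers (UMIs, counted molecules), with a median of 3735.5 to 4975.5 UMIs per cell. Angptl4 had 47 UMIs in Angptl4+/+ at 1 dpw, 78 in Angptl4+/+ at 5 dpw and 0 in both Angptl4-/- libraries. Pairs of libraries shared 5 to 15 cell barcodes. The 4 markers of red blood cells summed to 600 counts per 1000000 UMIs (CPM) in the Angptl4-/- library of 5 dpw against 0.729 to 3.83 CPM in the other libraries. The cells were grouped into 14 clusters without use of the Ms4a genes, and clusters were called by their markers as neutrophil-like (13781 cells, all 8 markers detected), macrophage-like (4203 cells, all 10), dendritic cell-like (699 cells, 7 of 8), NK cell/T cell-like (532 cells, all 10), monocyte-like (524 cells, all 8), B cell-like (55 cells, all 8) and plasmacytoid dendritic cell-like (33 cells, all 4). These classes were rebuilt from the counts and may differ from those of the study.

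Levels below are the UMIs of a gene per 1000000 UMIs of a class in a library, with exact Poisson 95% intervals, and shares of cells carry exact Clopper-Pearson intervals in the tables behind them. Both intervals cover counting error only, not the difference between mice. Because the values come from 3′ ends and are not scaled by length, the level of 1 gene is not set against that of another.

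**Figure D1:**
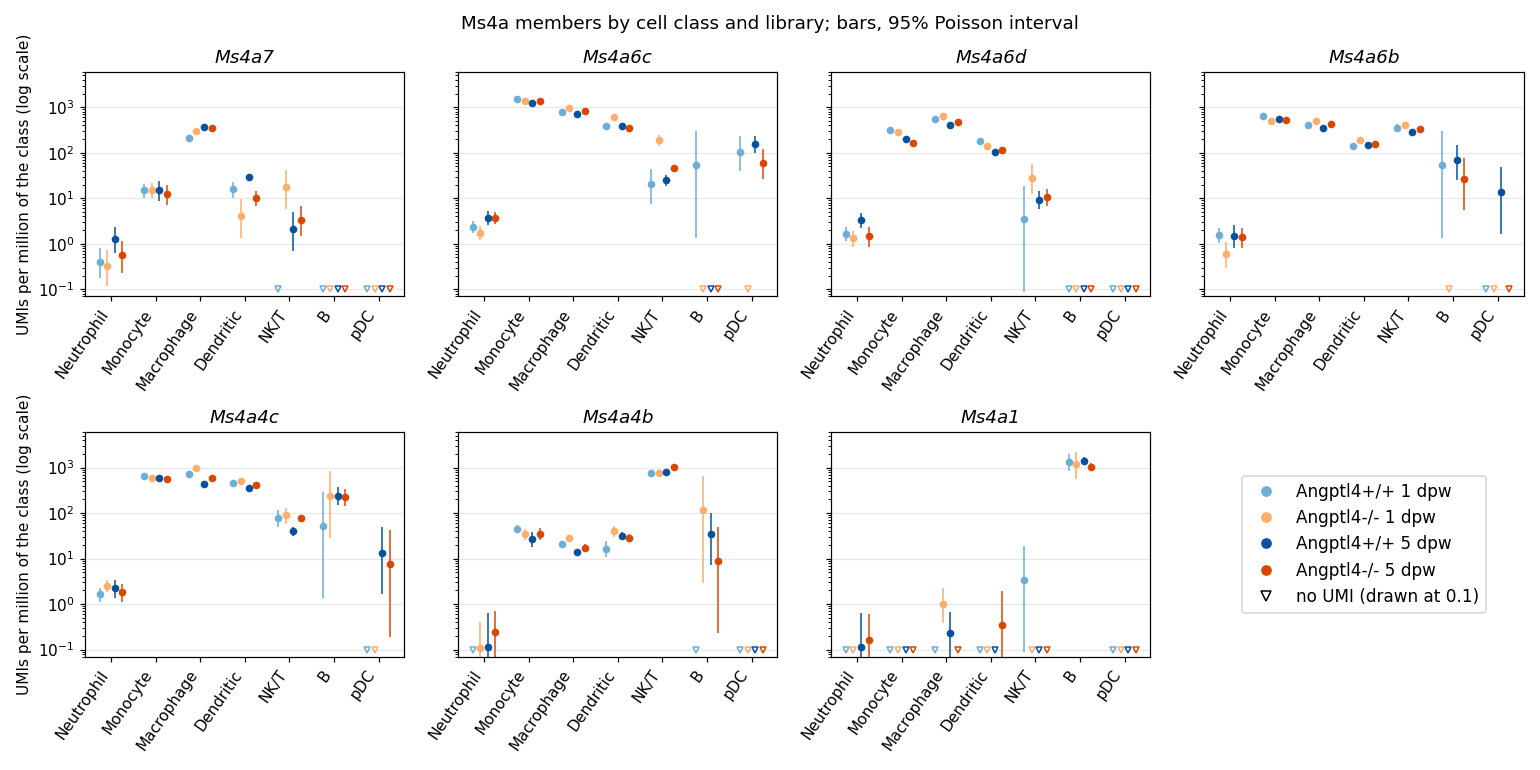
Level of each of the 7 members (CPM, log axis) in each cell class, with 1 point per library coloured by genotype and day, bars for the 95% Poisson interval and open triangles where no UMI was counted. Ms4a7 stood at 208 to 361 CPM in macrophage-like cells against 12.3 to 15.2 CPM in monocyte-like cells, Ms4a4b at 749 to 1008 CPM in NK cell/T cell-like cells and Ms4a1 at 1036 to 1418 CPM in B cell-like cells.

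By the class with the highest level, the members fell into a myeloid set (Ms4a7, Ms4a6c, Ms4a6d, Ms4a6b, Ms4a4c) and a lymphoid set (Ms4a4b, Ms4a1). Neutrophil-like cells, 69.5% of all cells, were close to empty of all 7. No member was above 3.71 CPM in neutrophil-like cells of any library, and the share of these cells with a UMI was at most 1.23%. That share serves below as a reference, at a median depth of 3866 UMIs per neutrophil-like cell. Whether free RNA, doublets or expression in these cells gave the UMIs was not tested.

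Ms4a7, the macrophage marker of the family, was the most restricted of the myeloid set. Its level in macrophage-like cells was 208 CPM (199 to 218) in Angptl4+/+ and 295 (281 to 309) in Angptl4-/- at 1 dpw, and 361 (351 to 372) and 355 (341 to 368) at 5 dpw. Of all 11403 Ms4a7 UMIs, 97.2% were in macrophage-like cells. A UMI of the gene was counted in 38.3% of macrophage-like cells (median depth 8066 UMIs), and in 17.0% when each cell was thinned to 1000 UMIs, against 0.225% of neutrophil-like cells (0.0739% thinned). Monocyte-like cells held 15.0, 15.2, 15.1 and 12.3 CPM in Angptl4+/+ and Angptl4-/- at 1 dpw and then at 5 dpw, the order of every list of 4 values below. The log2 ratio of monocyte-like to macrophage-like cells was therefore between -4.85 and -3.79, with no overlap between the classes in any library.

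Ms4a6c showed the reverse order between these classes. Ms4a6c was at 1522 (1471 to 1575), 1404 (1349 to 1461), 1232 (1167 to 1298) and 1387 CPM (1326 to 1450) in monocyte-like cells. In macrophage-like cells it was at 784 (766 to 803), 972 (947 to 997), 725 (710 to 739) and 826 CPM (806 to 847). Every monocyte-like value lay above every macrophage-like value, by a log2 ratio of 0.53 to 0.96 within a library. Nearly every monocyte-like cell carried the gene, 97.9% of them (69.4% thinned), against 72.7% of macrophage-like cells (41.8% thinned) and 1.12% of neutrophil-like cells (0.222% thinned). Dendritic cell-like cells followed at 392, 600, 383 and 348 CPM. Plasmacytoid dendritic cell-like cells held 37 Ms4a6c UMIs in all, 103 CPM (72.6 to 142), in 42.4% of 33 cells (6.06% thinned).

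Ms4a6b stood at similar levels in macrophage-like and NK cell/T cell-like cells. Monocyte-like cells had 642, 492, 558 and 523 CPM, macrophage-like cells 415, 499, 342 and 432 CPM, and cells of the NK cell/T cell-like class 346, 405, 280 and 335 CPM. The monocyte-like level was higher than the macrophage-like level in 3 libraries (log2 ratios 0.63, 0.71 and 0.28) and not in Angptl4-/- at 1 dpw (-0.02). Macrophage-like and NK cell/T cell-like levels were close in every library, with log2 ratios of 0.27 to 0.37, and their order turned in 3 libraries when each cell was weighted equally, Angptl4-/- at 5 dpw being the exception. Among NK cell/T cell-like cells 71.8% had a Ms4a6b UMI (30.6% thinned). The gene was at 139 to 187 CPM in dendritic cell-like cells and at 44.2 CPM (21.2 to 81.3) over all B cell-like cells.

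Ms4a6d, on the opposite strand at the far end of the Ms4a6 group, was highest in macrophage-like cells. Its level there was 555 (539 to 570), 657 (636 to 678), 416 (405 to 427) and 474 CPM (459 to 490). In monocyte-like cells it was 315 (291 to 339), 284 (259 to 310), 203 (178 to 231) and 162 CPM (141 to 184). The classes did not overlap in any library, with log2 ratios of monocyte-like to macrophage-like cells from -1.55 to -0.82, so that the 3 Ms4a6 genes were not ordered alike across these classes. Dendritic cell-like cells held 182, 143, 102 and 113 CPM, and 85.7% of all Ms4a6d UMIs were in macrophage-like cells.

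Ms4a4c was spread most evenly over the mononuclear myeloid cells. It stood at 723 (706 to 741), 971 (946 to 996), 443 (432 to 455) and 597 CPM (580 to 615) in macrophage-like cells, at 658, 589, 585 and 556 CPM in monocyte-like cells and at 461, 511, 351 and 422 CPM in dendritic cell-like cells. The order of monocyte-like and macrophage-like cells was not the same in all libraries, the log2 ratio being -0.14, -0.72, 0.40 and -0.10. B cell-like cells also carried the gene, with 49 UMIs in 50.9% of 55 cells and 217 CPM (160 to 286), against 2.02 CPM in neutrophil-like cells. The NK cell/T cell-like level was lower, at 78.7, 88.7, 39.5 and 78.3 CPM.

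Ms4a4b, the T cell member, was highest in NK cell/T cell-like cells, where its neighbour Ms4a4c was low. NK cell/T cell-like cells held 763 (666 to 870), 749 (651 to 857), 812 (776 to 849) and 1008 CPM (968 to 1050). They held 79.9% of all Ms4a4b UMIs, but only 41.7 and 43.7% at 1 dpw, when they were few and macrophage-like cells held 35.3 and 33.5%, against 84.9 and 89.8% at 5 dpw. A UMI was seen in 82.5% of these cells (53.9% thinned), against 0.0435% of neutrophil-like cells. Macrophage-like cells had 21.0, 27.6, 13.6 and 17.4 CPM, with log2 ratios of -5.90 to -4.76 to the NK cell/T cell-like cells of the same library. Monocyte-like cells had 44.2, 34.4, 26.7 and 35.4 CPM. Tnfrsf18, which encodes GITR, was likewise led by NK cell/T cell-like cells, at 253, 231, 231 and 189 CPM, against 57.9 CPM over all dendritic cell-like cells.

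Ms4a1 was confined almost wholly to the 55 B cell-like cells. Its level there was 1323 (856 to 1953), 1170 (561 to 2151), 1418 (1178 to 1692) and 1036 CPM (856 to 1243), on 25, 10, 123 and 116 UMIs. These cells held 274 of the 288 Ms4a1 UMIs (95.1%, and 10 of 16 in Angptl4-/- at 1 dpw), and 50 of the 55 cells (90.9%) had at least 1. Of the other UMIs, 9 were in macrophage-like cells, 6 of them in Angptl4-/- at 1 dpw, 3 in neutrophil-like cells, 1 in dendritic cell-like and 1 in the NK cell/T cell-like class. Monocyte-like cells had none, or 0 of 524 cells, which at this depth allows a share of cells with a UMI of up to 0.573% (3 counts of the total). Only 5 and 2 B cell-like cells were held at 1 dpw in Angptl4+/+ and Angptl4-/-, against 21 and 27 at 5 dpw, so the levels at 1 dpw are wide.

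Within the monocyte-like and macrophage-like cells the members parted further. These cells were clustered again, also without the Ms4a genes, into 9 sub-clusters that are called here by their leading genes. The sub-cluster led by Retnlg, S100a8 and S100a9, genes of neutrophils, had 443 cells (148, 120, 150 and 25 per library) with a median of 1211 UMIs. Without it none of the 169 recomputed ratios of the members moved by more than its counting interval. Of the 70 recomputed levels 2 did, and of the 70 shares of cells 15 did. The cells left out were 99.8% macrophage-like, so results of other classes could change little or not at all.

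**Figure D2:**
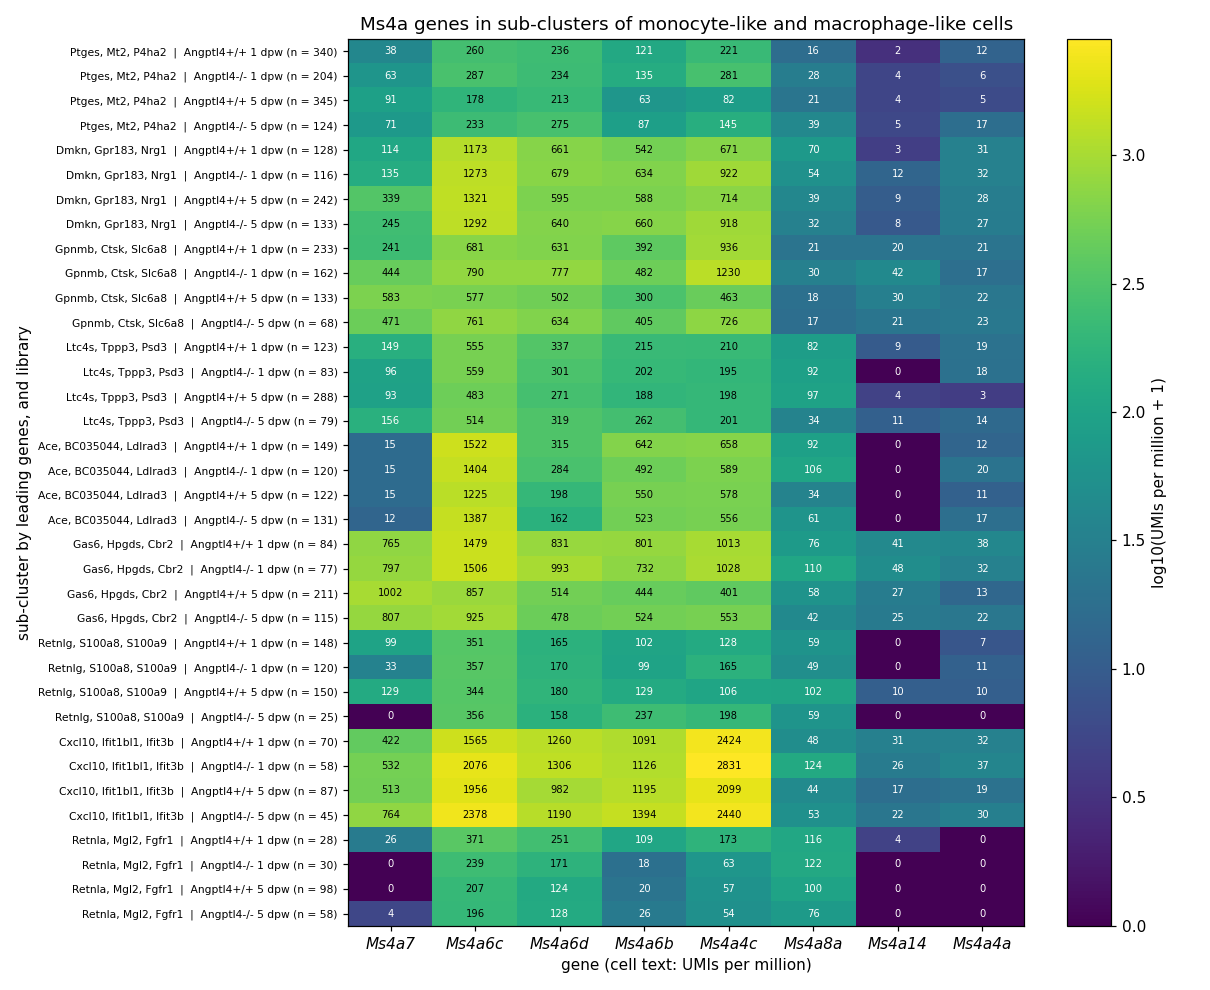
Levels of 8 Ms4a genes in the 9 sub-clusters of monocyte-like and macrophage-like cells and in each library, with CPM written in each cell and the colour on a log10(CPM + 1) scale. Ms4a7 was highest in the sub-cluster led by Gas6 (765 to 1002 CPM), whereas Ms4a4c was highest in the sub-cluster led by Cxcl10 (2099 to 2831 CPM).

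Ms4a7 was highest in the sub-cluster led by Gas6, Hpgds and Cbr2, which also had C1qa and C1qc among its leading genes, complement genes that macrophages express. It held 765, 797, 1002 and 807 CPM of Ms4a7 there. The sub-cluster led by Gpnmb and Ctsk had 241, 444, 583 and 471 CPM, and that led by Ptges and Mt2 had 38.0, 62.8, 91.4 and 70.7 CPM. The sub-cluster led by Ace, which held nearly all monocyte-like cells, had 15.0, 15.2, 15.3 and 12.3 CPM, and that led by Retnla and Mgl2 had 26.3, 0, 0 and 4.40 CPM. In 3 of 4 libraries the Retnla-led sub-cluster was thus below the monocyte-like cells, and the macrophage-like class spanned nearly the whole range of the gene.

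Ms4a4c, Ms4a6c, Ms4a6d and Ms4a6b were instead at their highest, in every library, in the sub-cluster led by Cxcl10, Ifit1bl1 and Ifit3b, genes that interferon induces. With Ms4a4b, these were 5 of the 6 members with at least 100 UMIs over the 9 sub-clusters, Ms4a7 being the other, whereas 2.87% of 9811 genes were highest there in every library. Ms4a4c reached 2424, 2831, 2099 and 2440 CPM in it, against 1013, 1028, 401 and 553 CPM in the sub-cluster led by Gas6 and 221, 281, 81.9 and 145 CPM in that led by Ptges. Ms4a6d reached 1260, 1306, 982 and 1190.2 CPM, against 831, 993, 514 and 478 CPM in the sub-cluster led by Gas6. Ms4a6b reached 1091, 1126, 1195 and 1394 CPM, against 109, 18.0, 20.3 and 25.5 CPM in the sub-cluster led by Retnla. The sub-cluster with the lowest level was not the same for each of these genes. Ms4a6c was at 1565, 2076, 1956 and 2378 CPM in the Cxcl10-led sub-cluster, so that macrophage-like cells there exceeded the Ace-led monocyte-like cells in every library, in Angptl4+/+ at 1 dpw by less than the counting error. The neutrophil-like cluster led by Ifit3b and Ifit1 held 1.63 CPM of Ms4a4c, within the 1.57 to 3.14 CPM of the neutrophil-like clusters. Ms4a4c had 119 UMIs over all neutrophil-like cells, so only a large difference between these clusters could show.

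At 1000 UMIs per cell, macrophage-like cells with a UMI of 1 myeloid member more often had a UMI of another. Of 1683 cells with Ms4a6c, 47.4% had Ms4a4c, against 17.9% of the cells without it. The corresponding shares were 39.8% and 14.6% for Ms4a6b, 43.5% and 23.0% for Ms4a6d, and 25.6% and 10.9% for Ms4a7. These are descriptions over 4022 cells of 4 libraries, in which the sub-clusters above were not separated.

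**Figure D3:**
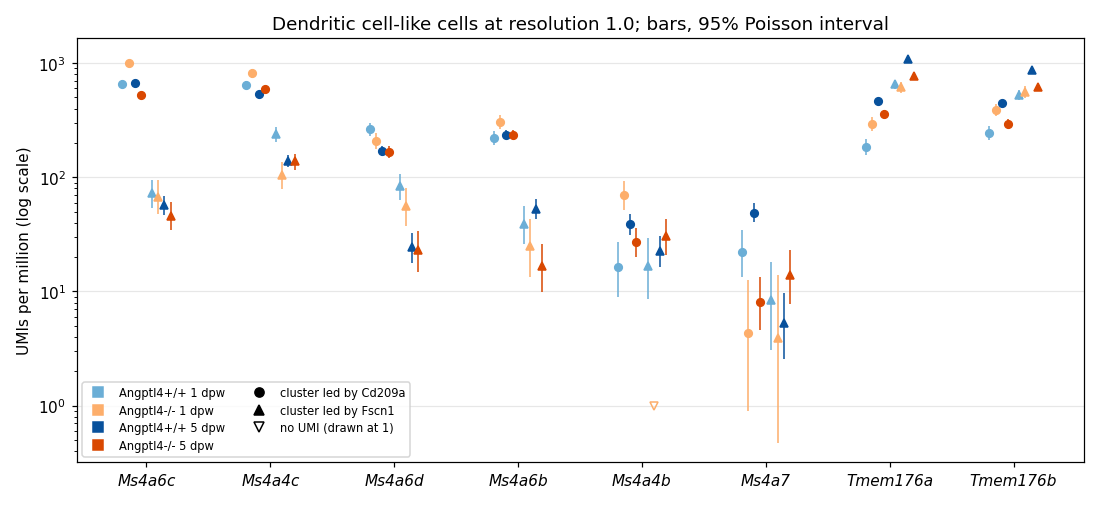
Levels of Ms4a genes (CPM, log axis) in the dendritic cell-like cells split into the cluster led by Cd209a (circles) and the cluster led by Fscn1 (triangles), with 1 point per library and bars for the 95% Poisson interval. Ms4a6c was at 526 to 998 CPM in the Cd209a-led cluster and at 46.2 to 72.4 CPM in the Fscn1-led cluster.

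Dendritic cell-like cells split at a finer resolution into a cluster led by Cd209a, Cd209d and Ffar2 (55, 45, 154 and 116 cells) and a cluster led by Fscn1, Apol7c and Ccl22, genes of mature dendritic cells (52, 43, 152 and 82 cells). The 4 myeloid members other than Ms4a7 were higher in the Cd209a-led cluster in every library. Ms4a6c was at 659.5, 998, 668 and 526 CPM there and at 72.4, 67.9, 56.8 and 46.2 CPM in the Fscn1-led cluster. Ms4a4c was at 647, 814, 535 and 589 CPM and at 239, 105, 139.6 and 138 CPM. Ms4a6d was at 264, 209, 170.4 and 166 CPM and at 83.5, 56.2, 24.4 and 23.1 CPM, and Ms4a6b at 222, 307, 236 and 236 CPM and at 39.0, 25.2, 52.5 and 16.6 CPM. No library of either cluster overlapped the other cluster for any of these 4 genes, and 26.4% of 7229 genes were likewise higher in the Cd209a-led cluster without overlap. Tmem176a, a relative of the family, ran the other way, at 183, 294, 463 and 357 CPM in the Cd209a-led cluster and 654, 616, 1079.8 and 764 CPM in the Fscn1-led cluster.

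**Figure D4:**
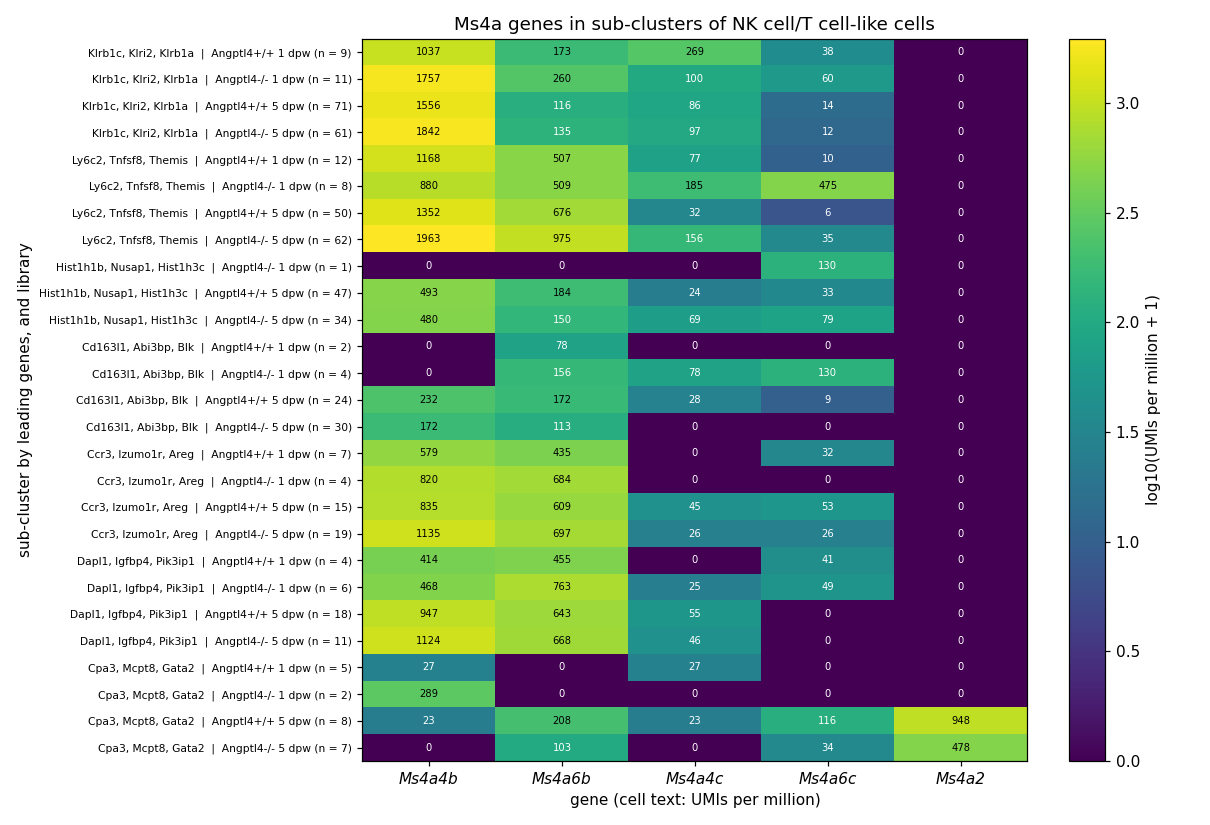
Levels of Ms4a4b, Ms4a6b, Ms4a4c, Ms4a6c and Ms4a2 in the 7 sub-clusters of NK cell/T cell-like cells and in each library, with CPM written in each cell and the colour on a log10(CPM + 1) scale. Ms4a4b was highest in the sub-clusters led by Klrb1c and by Ly6c2, and Ms4a2 was counted only in the sub-cluster led by Cpa3.

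The 532 NK cell/T cell-like cells gave 7 sub-clusters, in which Ms4a4b and Ms4a6b were not ordered alike. The NK cell-like sub-cluster led by Klrb1c (152 cells) held 1037, 1757, 1556 and 1842 CPM of Ms4a4b, and the T cell-like sub-cluster led by Ly6c2, Tnfsf8 and Themis (132 cells) held 1168, 879.6, 1352 and 1963 CPM. For Ms4a6b the same sub-clusters had 173, 259.5, 116 and 135 CPM and 507, 509, 676 and 975 CPM. The NK cell-like cells were thus lower than these T cell-like cells in Ms4a6b in every library, while for Ms4a4b the order changed with the library. The T cell-like sub-cluster led by Ccr3 (45 cells) also had the regulatory T cell gene Foxp3 among its leading genes. It had 579, 820.4, 835 and 1135 CPM of Ms4a4b and 435, 684, 609 and 697 CPM of Ms4a6b. The sub-cluster led by Cd163l1 and Abi3bp (60 cells), called from markers of gamma-delta T cells and innate lymphoid cells, had 0 CPM of Ms4a4b at 1 dpw on 2 and 4 cells and 232 and 172 CPM at 5 dpw, below the 5 dpw levels of the other T cell-like and NK cell-like sub-clusters.

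**Figure D5:**
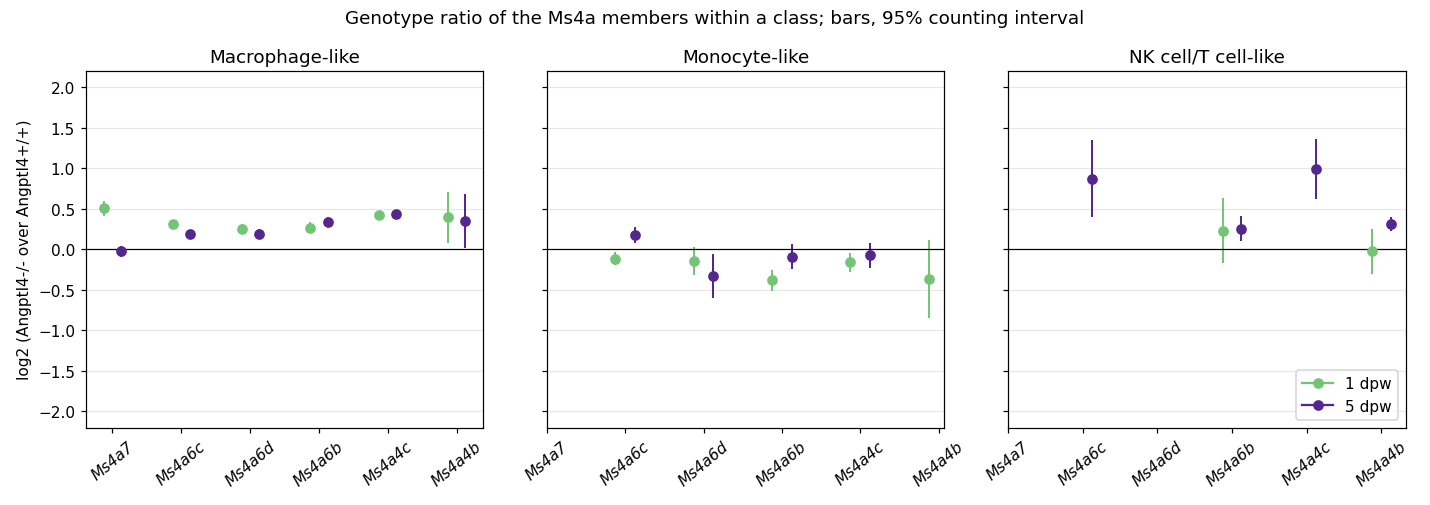
Log2 ratio of Angptl4-/- to Angptl4+/+ for each member in macrophage-like, monocyte-like and NK cell/T cell-like cells, at 1 dpw (green) and 5 dpw (purple), with bars for the 95% counting interval. In macrophage-like cells all 6 members counted deeply enough lay above 0 at 1 dpw (0.24 to 0.50), and 5 of 6 at 5 dpw, Ms4a7 being at -0.03.

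The genotypes were compared within each class and day, for genes with at least 100 UMIs over both libraries, as log2 ratios of Angptl4-/- to Angptl4+/+ with a 95% interval of counting error. In macrophage-like cells the members compared were higher in the Angptl4-/- library by less than 2-fold, Ms4a7 at 1 dpw only. At 1 dpw all 6 members that could be compared had ratios above 0, as did 55.1% of all 7855 genes. Ms4a7 was at 0.50 (0.41 to 0.60), Ms4a4c at 0.43 (0.37 to 0.48), Ms4a4b at 0.39 (0.08 to 0.70), Ms4a6c at 0.31 (0.26 to 0.36), Ms4a6b at 0.27 (0.19 to 0.34) and Ms4a6d at 0.24 (0.18 to 0.31). Their median was 0.35, against 0.03 over all genes. None was past 2-fold in either direction, which 0.382% of genes were upward and 0.433% downward. The 6 ratios stayed above 0 in all 10 settings, the reported one included, the lowest being 0.15 for Ms4a4b. The alternative floor of UMIs is among these settings and could not move a ratio, as it changes only which genes enter.

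At 5 dpw, 5 of the 6 members were above 0 in macrophage-like cells, as were 46.1% of all 8859 genes. Ms4a4c was at 0.43 (0.37 to 0.49), Ms4a4b at 0.35 (0.01 to 0.68), Ms4a6b at 0.34 (0.27 to 0.40), Ms4a6c at 0.19 (0.14 to 0.24) and Ms4a6d at 0.19 (0.13 to 0.25). Ms4a7 was at -0.03 (-0.09 to 0.04), an interval that holds 0, and ran from -0.04 to 0.07 over the settings tried. The median was 0.26, against -0.02 over all genes, and none of the 6 was past 2-fold (0.429% of genes upward, 0.689% downward). With 1 library per genotype and day, the genotype cannot be told apart from the library. The median depth of macrophage-like cells also differed, at 6855.5 and 5901.5 UMIs in Angptl4+/+ and Angptl4-/- at 1 dpw and at 8346 and 11536 at 5 dpw, and its part was not tested.

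The mixture of sub-clusters differed between the libraries too. The Gas6-led sub-cluster, where Ms4a7 was highest, made up 6.45, 7.94, 12.6 and 14.8% of monocyte-like and macrophage-like cells, and the Ptges-led sub-cluster, where it was lower, 26.1, 21.0, 20.6 and 15.9%. Within sub-clusters Ms4a4c kept ratios above 0 at 5 dpw, with 0.83 (0.51 to 1.14) in the Ptges-led, 0.65 (0.48 to 0.82) in the Gpnmb-led, 0.46 (0.33 to 0.60) in the Gas6-led, 0.36 (0.26 to 0.46) in the Dmkn-led and 0.22 (0.11 to 0.32) in the Cxcl10-led sub-cluster. It was at 0.02 (-0.24 to 0.28) in the Ltc4s-led and at -0.10 (-0.60 to 0.40) in the Retnla-led sub-cluster. At 1 dpw it was between 0.22 and 0.46 in the Cxcl10-led, Ptges-led, Gpnmb-led and Dmkn-led sub-clusters, and at 0.02 (-0.12 to 0.17) in the Gas6-led and -0.11 (-0.60 to 0.37) in the Ltc4s-led sub-cluster. The higher Ms4a4c of the class was thus seen in most, not all, of its sub-clusters.

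Ms4a7 did not move in 1 direction across the sub-clusters. At 1 dpw it was at 0.88 (0.71 to 1.06) in the Gpnmb-led, 0.72 (0.27 to 1.18) in the Ptges-led and 0.33 (0.10 to 0.57) in the Cxcl10-led sub-cluster, and at 0.24 (-0.05 to 0.53) in the Dmkn-led, 0.06 (-0.11 to 0.23) in the Gas6-led and -0.64 (-1.34 to 0.0044) in the Ltc4s-led sub-cluster. At 5 dpw it was at -0.47 (-0.64 to -0.30) in the Dmkn-led, -0.37 (-0.77 to 0.01) in the Ptges-led, -0.31 (-0.41 to -0.21) in the Gas6-led and -0.31 (-0.49 to -0.13) in the Gpnmb-led sub-cluster, but at 0.74 (0.42 to 1.07) in the Ltc4s-led and 0.58 (0.37 to 0.78) in the Cxcl10-led sub-cluster. The class value near 0 at 5 dpw therefore held sub-clusters on both sides of 0.

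Monocyte-like cells did not share the direction of the macrophage-like cells at 1 dpw. All 5 members that could be compared were below 0 there, as were 54.2% of 4844 genes, from -0.39 (-0.51 to -0.26) for Ms4a6b and -0.36 (-0.85 to 0.12) for Ms4a4b to -0.12 (-0.19 to -0.04) for Ms4a6c. The intervals of 3 of the 5 lay off 0, and none was past 2-fold (0.33% of genes each way). At 5 dpw 1 of 4 was above 0, as were 51% of 3596 genes: Ms4a6c was at 0.17 (0.07 to 0.27), Ms4a6d at -0.33 (-0.60 to -0.06), Ms4a6b at -0.09 (-0.25 to 0.06) and Ms4a4c at -0.07 (-0.23 to 0.08). Whether the ratios differ between the classes was not tested, as each rests on 1 library per genotype.

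In NK cell/T cell-like cells at 5 dpw all 4 members compared were above 0, as were 48.3% of 5680 genes. Ms4a4b was at 0.31 (0.22 to 0.40) on 2383 and 1914 UMIs, and Ms4a6b at 0.25 (0.10 to 0.41). Ms4a4c was at 0.99 (0.62 to 1.36) on 185 and 93 UMIs, and Ms4a6c at 0.87 (0.40 to 1.35) on 108 and 59 UMIs, neither past 2-fold (0.81% of genes upward, 0.335% downward). The Ms4a6c value was not stable. The Ms4a4c value stayed within its counting interval in every setting that could move it, on either side of the 2-fold line. With doublets left out both were past 2-fold, at 1.22 for Ms4a4c and 1.36 for Ms4a6c. Without the top cell of each library they were at 1.01 and 1.04, while without integration Ms4a4c was at 0.71 and Ms4a6c at -0.11. Ms4a6c was at 0.29 with all deposited barcodes kept and at 0.37 with a resolution of 1.0. It was at 0.36 with Ms4a genes among the variable genes and at 0.28 with the mean of per-cell CPM. Each of these lay below its counting interval. Ms4a4b was at 0.54 (0.37 to 0.71) in the sub-cluster led by Ly6c2, 0.44 (0.09 to 0.80) in that led by Ccr3, 0.24 (0.09 to 0.39) in the NK cell-like sub-cluster and -0.04 (-0.21 to 0.14) in that led by the cell cycle gene Hist1h1b. In the last of these, of 47 and 34 cells at 5 dpw, Ms4a6c was past 2-fold higher at 1.25 (0.67 to 1.85), on 84 UMIs in Angptl4-/- and 37 in Angptl4+/+, as 1.31% of 3206 genes were. This sub-cluster value was not recomputed under the other settings. Over the whole class, 2 cells held 36 of the 108 Ms4a6c UMIs in Angptl4-/- and 22 of the 59 in Angptl4+/+. At 1 dpw, on 39 and 36 cells, Ms4a4b was at -0.03 (-0.31 to 0.25) and Ms4a6b at 0.23 (-0.17 to 0.63), and no difference was detectable at this depth.

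Dendritic cell-like cells gave ratios on both sides of 0. At 1 dpw 3 of 4 members were above 0, as were 48.9% of 3972 genes: Ms4a6c at 0.61 (0.46 to 0.77), Ms4a6b at 0.43 (0.15 to 0.70) and Ms4a4c at 0.15 (-0.01 to 0.30), with Ms4a6d at -0.34 (-0.62 to -0.06). At 5 dpw Ms4a4c was at 0.26 (0.15 to 0.38) and Ms4a6c at -0.14 (-0.25 to -0.02), while Ms4a7 was past 2-fold lower at -1.48 (-2.11 to -0.89), as 0.579% of genes were. That last value rests on few cells, and was no longer past 2-fold with doublets left out (-0.92) or with all deposited barcodes kept (-0.82). No ratio was available without integration, where Ms4a7 did not enter the comparison. Without the top cell of each library the ratio was further from 0, at -1.998. In Angptl4+/+ 2 cells held 66 of the 116 Ms4a7 UMIs, 1 of them called a doublet, and in Angptl4-/- 2 cells held 19 of 30. Without those cells the levels were 12.5 and 3.80 CPM. The macrophage gene C1qb was at 132 and 31 CPM in the Cd209a-led cluster of the same libraries, and its part in the Ms4a7 ratio was not tested. In B cell-like cells at 5 dpw Ms4a1 was at -0.45 (-0.83 to -0.07), and 0.495% of 202 genes were past 2-fold lower there.

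Between 1 and 5 dpw, Ms4a7 and Ms4a4c moved apart in macrophage-like cells of both genotypes. These comparisons use the same libraries as those between genotypes. In Angptl4+/+ the log2 ratio of 5 to 1 dpw was 0.80 (0.72 to 0.87) for Ms4a7 and -0.71 (-0.76 to -0.65) for Ms4a4c. In Angptl4-/- it was 0.27 (0.18 to 0.35) for Ms4a7 and -0.70 (-0.76 to -0.64) for Ms4a4c. Ms4a6d was at -0.42 and -0.47, Ms4a4b at -0.62 and -0.67, Ms4a6b at -0.28 and -0.21, and Ms4a6c at -0.11 and -0.23 in Angptl4+/+ and Angptl4-/-. Only 1 of the 6 was above 0 in either genotype, Ms4a7, whereas 62.4% of 8862 genes in Angptl4+/+ and 55.9% of 7900 genes in Angptl4-/- were. The median over all genes was 0.15 and 0.07. None of the 6 was past 2-fold, as 6.47% of genes were upward and 4.29% downward in Angptl4+/+, and 4.23% and 3.56% in Angptl4-/-. The differences of Ms4a6c in both genotypes, and of Ms4a6b and Ms4a4b in Angptl4-/-, depended on how cells were weighted: with every cell counted equally, 2 of the 6 members in Angptl4+/+ and 4 in Angptl4-/- were above 0.

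The lower Ms4a4c at 5 dpw was also seen inside sub-clusters, at 401 against 1013 CPM in the Gas6-led, 463 against 936 CPM in the Gpnmb-led and 81.9 against 221 CPM in the Ptges-led sub-cluster of Angptl4+/+. In the Dmkn-led sub-cluster it was at 714 against 671 CPM. Ms4a7 of Angptl4+/+ was higher at 5 dpw inside the Gas6-led, Gpnmb-led and Ptges-led sub-clusters. In Angptl4-/- its levels inside these sub-clusters, given above, were close on both days. The Ltc4s-led sub-cluster differed: all 5 members compared were lower at 5 dpw in Angptl4+/+, and 4 of 5 were higher in Angptl4-/-. The median log2 ratio over all genes there was 0.06 and -0.004. The Gas6-led share of Angptl4-/- monocyte-like and macrophage-like cells went from 7.94% at 1 dpw to 14.8% at 5 dpw. The part of this mixture in the class ratio of Ms4a7 was not tested. Monocyte-like cells of Angptl4+/+ were lower at 5 dpw in all 5 members compared, as 56.5% of 4419 genes were, from -0.73 (-1.37 to -0.12) for Ms4a4b to -0.17 (-0.30 to -0.03) for Ms4a4c. In Angptl4-/- monocyte-like cells Ms4a6d was at -0.81 (-1.05 to -0.58), and Ms4a6c, Ms4a6b, Ms4a4c and Ms4a4b were between -0.08 and 0.09 with intervals that hold 0. In NK cell/T cell-like cells of Angptl4-/- Ms4a6c was past 2-fold lower at 5 dpw, at -2.07 (-2.55 to -1.57), as 6.03% of genes were, but 40 of the 54 UMIs at 1 dpw came from 1 cell of 37178 UMIs, and without it the 1 dpw level was 57.2 in place of 192 CPM.

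Over 16 points (dendritic cell-like, neutrophil-like, macrophage-like and monocyte-like cells in 4 libraries), the levels of Ms4a6b and Ms4a6c followed each other most closely among the members, with a Pearson r of 0.997 on the log2(CPM + 1) scale. Ms4a7 followed Ms4a4b, Ms4a4c and the Ms4a6 genes less closely, at 0.618 to 0.85. Points of the same library share its depth, and all points share the low neutrophil-like values, so each r is a description. Among 7092 genes the level of Ccr2, the chemokine receptor of inflammatory monocytes, was the most like both Ms4a6b (0.994) and Ms4a6c (0.995). The genes most like Ms4a7 were Sept8 (0.971), C1qb (0.969), a complement component of macrophages, and Acp2 (0.964). For Ms4a6d the closest was Capn2 (0.995), for Ms4a4c Vma21 (0.994) and for Ms4a4b, in these myeloid classes, Tmsb10 (0.989).

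Each of the 12 other Ms4a genes had fewer UMIs over all cells than any member except Ms4a1, which had 288. Ms4a8a had 2360 UMIs in all, with 78.6 CPM over monocyte-like and 50.4 CPM over macrophage-like cells, and in the Retnla-led sub-cluster it stood at 116, 122, 100.01 and 75.7 CPM, where Ms4a6b and Ms4a7 were low. Ms4a4a had 778 UMIs, 638 of them in macrophage-like cells. Ms4a14 had 507 UMIs, 498 of them in macrophage-like cells and 0 in monocyte-like cells. Ms4a2, the beta chain of the IgE receptor, had 55 UMIs, every 1 of them in the 22 mast cell/basophil-like cells led by Cpa3 and Mcpt8, at 0, 0, 948 and 478 CPM on 5, 2, 8 and 7 cells. Ms4a3, a gene of granulocyte and monocyte progenitors, had 9 UMIs, all in neutrophil-like cells, and the other 7 genes had at most 5 UMIs each.

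Partners and relatives of the family were taken from a fixed list. Of the B cell receptor chains, Cd79a was held by the same cells as Ms4a1, with 508 of 537 UMIs in B cell-like cells, whereas only 399 of 859 Cd79b UMIs were there, and 17 of the remaining Cd79a UMIs were in NK cell/T cell-like cells of Angptl4-/- at 5 dpw. Fcer1a, the alpha chain of the IgE receptor that MS4A2 joins, had 54 of its 55 UMIs in the NK cell/T cell-like class, which held the mast cell/basophil-like cells. Fcer1g, the gamma chain used by several Fc receptors, was instead broad, at 3194 to 3671 CPM in neutrophil-like cells and 2416 to 2889 CPM in macrophage-like cells. The relatives Tmem176a and Tmem176b were near 0 in neutrophil-like cells, as the members were. In macrophage-like cells Tmem176a was at 26.6, 59.7, 162 and 153 CPM and Tmem176b at 40.7, 68.7, 228 and 205 CPM, with both 5 dpw libraries above both 1 dpw libraries, as for Ms4a7.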

How the data were processed

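Per the labels and the study's methods, live CD45+ cells were sorted from the wounds and sequenced as 10x 3′ (V3) libraries, and the authors deposited filtered gene by cell tables of UMI counts made with Cell Ranger 3.1.0 on mm10. The submitters' processing notes also name Seurat 3.0. The counts were used as deposited and no column was left out. The members and gene lists were chosen with earlier results of these data known.

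Cells with at least 200 genes and at most 10% mitochondrial UMIs were kept. Doublets were called (229, 184, 196 and 180 in Angptl4+/+ and Angptl4-/- at 1 dpw and then 5 dpw) and kept. Libraries were integrated in Seurat 5.3.0 (R 4.3.3) on 2000 variable genes with all Ms4a genes left out, 30 dimensions and a Louvain resolution of 0.5. A cluster was named from marker lists, and only with at least 3 markers detected. Scored against the cells clustered with them, the Ptges-led, Gpnmb-led and Retnlg-led sub-clusters were highest for the neutrophil list. The Hist1h1b-led sub-cluster was highest for the B cell list. These names were not used. UMIs were summed per class and library with Python 3.11.15, numpy 2.4.6, pandas 2.3.3, scipy 1.17.1, scikit-learn 1.9.0 and matplotlib 3.10.9. With 1 library per group no test was run. A gene entered a comparison with at least 100 UMIs over both libraries, ratios carry exact conditional binomial intervals, and 3 UMIs were the floor. Shares were also taken at 1000 UMIs per cell, leaving out 442 shallower cells. All 7 members are named, and other genes only as members of the wider family, as partners or relatives from a fixed list, as cell type markers, as the 3 genes leading a cluster or as the 3 most like a member by Pearson r (C1qa, C1qc and Foxp3 among the leading 10 were named after their values were seen). The ratios, their intervals and the 2-fold calls were tested on simulated counts, and the other steps were not. Those counts were Poisson draws with changes larger than 2-fold, so UMIs held by few cells and smaller changes were not tried. The alternatives were all deposited barcodes, doublets left out, no integration, a resolution of 1.0, Ms4a genes among the variable genes, scaling by the median ratio of all genes, the mean of per-cell CPM and a floor of 20 UMIs. Leaving out the Retnlg-led sub-cluster or the top cell of each library was added after seeing the data.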

Additional observations from a re-analysis of the deposited data

Results flagged for a closer look

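The log2 ratio of Angptl4-/- to Angptl4+/+ had opposite signs at 1 and 5 dpw, with counting intervals off 0 on both days, in 3 cases. The share of all genes that met this rule was not computed, so the number is not a result about the members. Ms4a6c in monocyte-like cells was at -0.12 at 1 dpw and 0.17 at 5 dpw. Ms4a6c in dendritic cell-like cells was at 0.61 and -0.14, the second of which turned to 0.0808 without integration. Ms4a7 over monocyte-like and macrophage-like cells together was at 0.45 and -0.14, where the macrophage-like cells alone were at 0.50 and -0.03 and the Ace-led sub-cluster of monocyte-like cells, low in Ms4a7, made up 11.4, 12.4, 7.28 and 16.8% of the pool in Angptl4+/+ and Angptl4-/- at 1 dpw and then 5 dpw. With 1 library per genotype and day, the difference between the days was not tested.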

How the results depend on the processing

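Of 1366 recomputed ratios of the members, 38 changed sign, 29 of them from a reported value whose counting interval held 0 and 9 from one whose interval lay off 0. Apart from those 9, 1196 moved by less than their counting intervals and 161 by more. The 77 ratios recomputed with the floor of 20 UMIs could not move, as that floor changes only which genes enter. Leaving out the Retnlg-led sub-cluster could change little outside the macrophage-like cells. Without integration Ms4a6c of Angptl4-/- against Angptl4+/+ at 5 dpw was at 0.0808 in dendritic cell-like cells and at -0.11 in the NK cell/T cell-like class. With the mean of per-cell CPM the 5 to 1 dpw ratio in macrophage-like cells was at 0.0032 for Ms4a6c in Angptl4+/+, and in Angptl4-/- at 0.0862 for Ms4a6c, 0.022 for Ms4a4b and 0.23 for Ms4a6b, so that 2 members in Angptl4+/+ and 4 in Angptl4-/- were above 0, against 1 in each otherwise. The same setting put Ms4a4c of macrophage-like against monocyte-like cells in Angptl4+/+ at 1 dpw at -0.11, and Ms4a6b of NK cell/T cell-like against macrophage-like cells at 0.15 in Angptl4-/- at 1 dpw and 0.16 in Angptl4+/+ at 5 dpw, and in Angptl4+/+ at 1 dpw, where the interval held 0, at 0.13. The cause was not tested. Of 72 recomputed counts of members, 70 were unchanged or within 1.5 times. Of 420 recomputed levels 52 moved by more than their counting intervals, and of 490 shares of cells 106 moved, most of them on thinning.

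No paired analysis was possible because each group had 1 library, and no replicate could be left out. The libraries hold few B cell-like cells (55) and few NK cell/T cell-like cells at 1 dpw (39 and 36), so differences of their members there were detectable only if large.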

Other observations

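Among the nearest genes outside the Ms4a cluster on chromosome 19, 16 could be compared between genotypes in macrophage-like cells, and 0 were past 2-fold on either day. Over all genes of this class 0.815% were past 2-fold at 1 dpw and 1.12% at 5 dpw, so 0 of 16 is close to that share. The median log2 ratio of Angptl4-/- to Angptl4+/+ of the 16 was 0.10 at 1 dpw and -0.12 at 5 dpw, against 0.03 and -0.02 over all genes. In neutrophil-like cells 13 could be compared, with medians of -0.09 and 0.00, against -0.09 and -0.07 over all genes. Again 0 were past 2-fold, as 0.959% and 1.03% of all genes were.

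Of the 9 Ms4a3 UMIs, 8 were in the Angptl4-/- library of 5 dpw.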
